A study of Homo sapiens with 12 samples.

Results

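The genes described here are 10 that the Wnt pathway is known to switch on through TCF factors and that mostly feed back on it: AXIN2, NKD1, RNF43, ZNRF3, NOTUM, DKK1, DKK4, APCDD1, LEF1 and TCF7. They were taken from the deposited log2 expression table by gene symbol, with the brightest row kept where a gene had several. A named row was found for 9 of the 10, out of 17687 named genes in all. No row carried the symbol TCF7, so TCF7 has no value below.

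Wnt ligands act through Frizzled and LRP receptors to keep beta-catenin from a cytoplasmic destruction complex, and the beta-catenin that is spared enters the nucleus and activates genes bound by TCF and LEF factors. Several of those genes encode brakes on the same pathway: a scaffold that helps to degrade beta-catenin, ligases that remove Frizzled from the membrane, and secreted proteins that block ligand or receptor. In colorectal cancer the pathway is usually active without ligand, DLD1 cells having a truncated APC and HCT 116 cells a stabilised beta-catenin, and the feedback genes are widely read as its output.

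The study asked what the loss of BRG1 does to human colorectal cancer cells. BRG1 is the SWI/SNF ATPase encoded by SMARCA4. DLD1 and HCT 116, both established lines, received siControl, the control siRNA, or siBRG1, which targets BRG1, and total RNA was hybridised to 1 array per sample, 3 arrays in each of 4 groups. No label says that arrays of 1 group stem from separate cultures, so the p-values reflect only how these arrays spread, which may be technical. How long after transfection the RNA was taken is not given in the labels.

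The siRNA target was low in every array labelled siBRG1. SMARCA4 changed by −3.80 in DLD1 (SE 0.21, limma adjusted p = 4.56e-07) and by −3.22 in HCT 116 (SE 0.21, limma adjusted p = 1.14e-06). Array medians lay between 6.36 and 6.50, and replicate 1 of HCT 116 siControl stood most apart from its group mean (0.320 log2 as a root mean square, the other 11 arrays being at 0.227 to 0.285). Of 9 colorectal epithelial markers measured, 6 lay above the array median on all 12 arrays, EPCAM among them at 15.53 to 16.71. VIL1 and CDX1, 2 further markers, lay below it on all arrays. Of 15 fibroblast, immune and endothelial markers, 11 lay below the median on all arrays, PTPRC, which marks leukocytes, at 3.36 to 4.72. The fibroblast marker COL1A2 lay above it on all 12 arrays, at 7.68 to 8.95, and was not called in either line. CD68, 1 of those 15, changed by 1.29 in HCT 116 (limma adjusted p = 0.00360). The other immune markers measured changed little there: PTPRC by 0.17, CD3E by 0.00, CD14 by −0.24 and MS4A1 by −0.01. A higher sum of the immune markers in HCT 116 siBRG1 thus lies in CD68. The summed log2 level of the 5 immune markers was 24.8 to 25.4 on HCT 116 siControl arrays and 25.8 to 26.9 on siBRG1 arrays, against 24.5 to 26.0 and 23.9 to 24.7 in DLD1, and the part of this in the results below was not tested. In RNA from a whole culture, fewer cells that express a gene and less RNA per cell cannot be told apart.

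In HCT 116, AXIN2 and RNF43 fell and DKK1 rose after siBRG1, and the other 6 genes did not pass. In DLD1 none of the 9 passed. A gene was called when its limma p-value, adjusted by Benjamini-Hochberg over all 17687 genes, was under 0.05. By that rule 3 of 9 were called in HCT 116 (33.3%), against 6.95% of all genes. Falls made up 4.13% and rises 2.82% of all genes there (731 and 499 genes, or 565 and 615 after centring on array medians). In DLD1 the rule called 35 genes of the table, 0.198% (98 with the replicate number as a block), and 3 of the 9 had an unadjusted p under 0.05 (AXIN2, NKD1 and LEF1, all lower), as had 1860 of all 17687 genes. The median change of the 9 was −0.24 in DLD1 and −0.29 in HCT 116, beside medians over all genes of 0.01 and −0.01. The genes and the lists below were chosen with earlier results of these data known. Their shares and medians, here and below, therefore describe the genes and give no separate support.

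**Figure D1:**
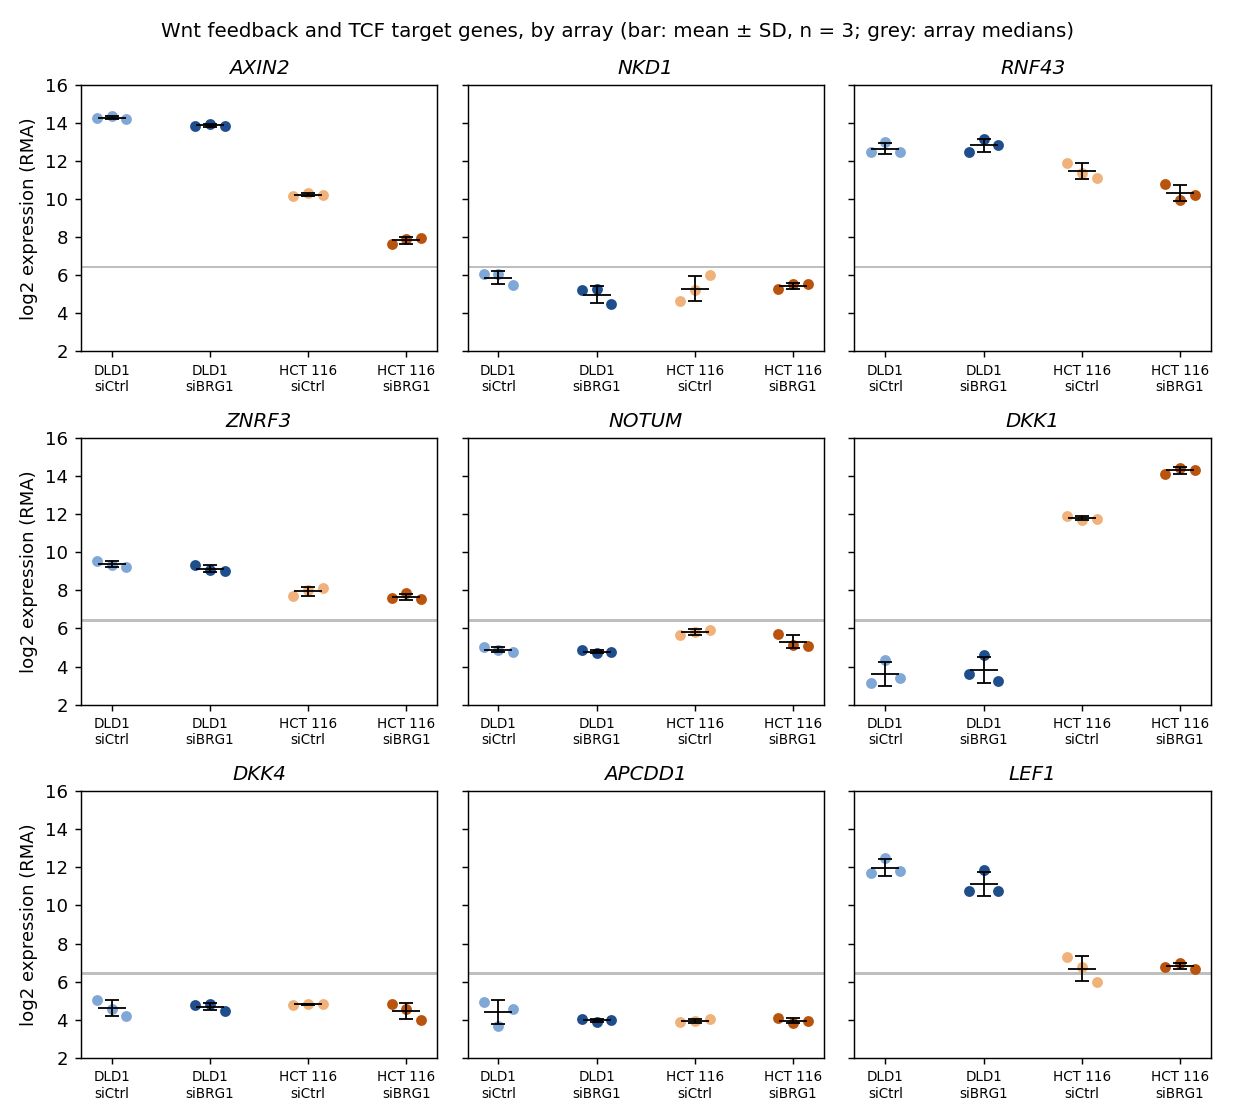
Log2 expression of 9 Wnt feedback and TCF target genes on each of 12 arrays, grouped by line and siRNA (siCtrl is siControl); points are arrays, black bars are the mean ± SD of 3 arrays, and the grey band spans the array medians (6.36 to 6.50). AXIN2 stepped down over the 4 groups without overlap, DKK1 was high on HCT 116 arrays and below the band on all DLD1 arrays, and NKD1, NOTUM, DKK4 and APCDD1 lay below the band on all 12 arrays.

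AXIN2, which encodes a scaffold of the destruction complex, showed the clearest response. From a mean of 10.24 ± 0.08 (SD, n = 3) in HCT 116 siControl it fell to 7.83 ± 0.18 (SD, n = 3). Its log2 levels there were 10.16, 10.32 and 10.23 on the siControl arrays and 7.63, 7.93 and 7.95 on the siBRG1 arrays. Every siBRG1 array lay more than 2 log2 units below every siControl array. The change was −2.40 (SE 0.16, 95% interval −2.75 to −2.06, limma adjusted p = 1.14e-06), the fall ranked 8 by size and AXIN2 ranked 5 by p among the 17687 genes. In DLD1 the levels were 14.26, 14.36 and 14.20 with siControl and 13.82, 13.97 and 13.85 with siBRG1. These groups did not overlap either, but the change of −0.39 (SE 0.16, interval −0.74 to −0.05) did not pass over all genes (limma adjusted p = 0.390). Both DLD1 groups lay above both HCT 116 groups, with siControl the higher in each line, and no neighbours in that order overlapped.

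NKD1, a cytoplasmic inhibitor that binds Dishevelled, stayed below the array median on all 12 arrays. Without detection calls in the table, values this low may be background. In DLD1 it read 6.08, 6.08 and 5.49 with siControl and 5.24, 5.26 and 4.48 with siBRG1, again without overlap. The difference of −0.89 (SE 0.30, interval −1.54 to −0.24) did not pass (limma adjusted p = 0.278). In HCT 116 its values ran from 4.67 to 5.99 in siControl and from 5.28 to 5.52 in siBRG1, with a difference of 0.14 (SE 0.30). AXIN2 and NKD1 were the 2 of 9 genes whose DLD1 groups did not overlap, a pattern seen in 15.5% of all genes. In HCT 116 it held for AXIN2, RNF43 and DKK1, 3 of 9, against 24.9% of all genes.

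RNF43 and ZNRF3 encode membrane ubiquitin ligases that clear Frizzled receptors from the cell surface. RNF43 read 11.91, 11.39 and 11.10 on the HCT 116 siControl arrays and 10.77, 9.97 and 10.24 on the siBRG1 arrays. All siBRG1 arrays were lower, although the highest of them lay close to the lowest control. The change of −1.14 (SE 0.27, interval −1.71 to −0.57) passed (limma adjusted p = 0.0184). It did not pass without HCT 116 siControl replicate 1 (−0.92, limma adjusted p = 0.0628) or replicate 2 (−1.18, 0.0536), nor without siBRG1 replicate 2 (−0.96, 0.0863) or replicate 3 (−1.10, 0.0695). In DLD1, RNF43 read 12.46, 12.99 and 12.49 with siControl and 12.49, 13.18 and 12.86 with siBRG1, groups that overlapped (change 0.20, SE 0.27, limma adjusted p = 0.893).

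ZNRF3 differed little between siRNAs in either line. Its DLD1 levels were 9.56, 9.35 and 9.23 with siControl and 9.35, 9.06 and 9.01 with siBRG1 (change −0.24, interval −0.64 to 0.15, limma adjusted p = 0.743). In HCT 116 they were 7.70, 8.01 and 8.13 and then 7.60, 7.84 and 7.53 (change −0.29, interval −0.69 to 0.10, limma adjusted p = 0.429). The groups overlapped in both lines. The HCT 116 intervals of RNF43 (−1.71 to −0.57) and ZNRF3 (−0.69 to 0.10) overlap, and the 2 genes were not tested against each other.

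DKK1, a secreted antagonist of the LRP co-receptors, moved the other way from AXIN2. Its HCT 116 siControl arrays read 11.91, 11.69 and 11.76, and its siBRG1 arrays 14.12, 14.43 and 14.34. The groups were more than 2 log2 units apart at their nearest arrays. The rise of 2.51 (SE 0.33, interval 1.81 to 3.20, limma adjusted p = 4.76e-04) ranked 12 by size among all genes. In DLD1 the arrays read 3.13, 4.34 and 3.41 with siControl and 3.62, 4.59 and 3.25 with siBRG1, all below the array median. There the groups overlapped and the change was 0.19 (SE 0.33, limma adjusted p = 0.919). A value that may be background puts little limit on a change, so the DLD1 result does not show that DKK1 was unchanged.

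The other extracellular brakes were low in both lines. They are NOTUM, a secreted enzyme that inactivates Wnt by removing its lipid, DKK4, a relative of DKK1, and APCDD1, a membrane inhibitor. Over all 12 arrays NOTUM lay between 4.71 and 5.94, DKK4 at or below 5.04 and APCDD1 between 3.67 and 4.93, below the array median on each. NOTUM read 5.67, 5.84 and 5.94 on HCT 116 siControl arrays and 5.69, 5.12 and 5.07 on siBRG1 arrays. The siBRG1 array numbered 1 lay among the controls, and the difference of −0.52 (SE 0.19, interval −0.92 to −0.11) did not pass (limma adjusted p = 0.125), whereas without that array it did (−0.72, limma adjusted p = 0.0341). The remaining differences, of NOTUM in DLD1 and of DKK4 and APCDD1 in both lines, ran from −0.43 to 0.07, with adjusted p from 0.462 to 0.994 by limma.

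LEF1 and TCF7 encode factors that bind DNA and recruit beta-catenin, and LEF1 is itself a target. LEF1 was high in DLD1, at 11.69, 12.47 and 11.80 with siControl and 10.75, 11.84 and 10.78 with siBRG1. The siBRG1 array numbered 2 lay within the range of the controls. The change of −0.86 (SE 0.34, interval −1.59 to −0.13) did not pass (limma adjusted p = 0.369). In HCT 116 LEF1 lay near the array median, at 7.30, 6.75 and 5.98 with siControl and 6.79, 6.98 and 6.67 with siBRG1 (change 0.14, SE 0.34, limma adjusted p = 0.885). The siBRG1 values fell inside the range of the siControl values.

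**Figure D2:**
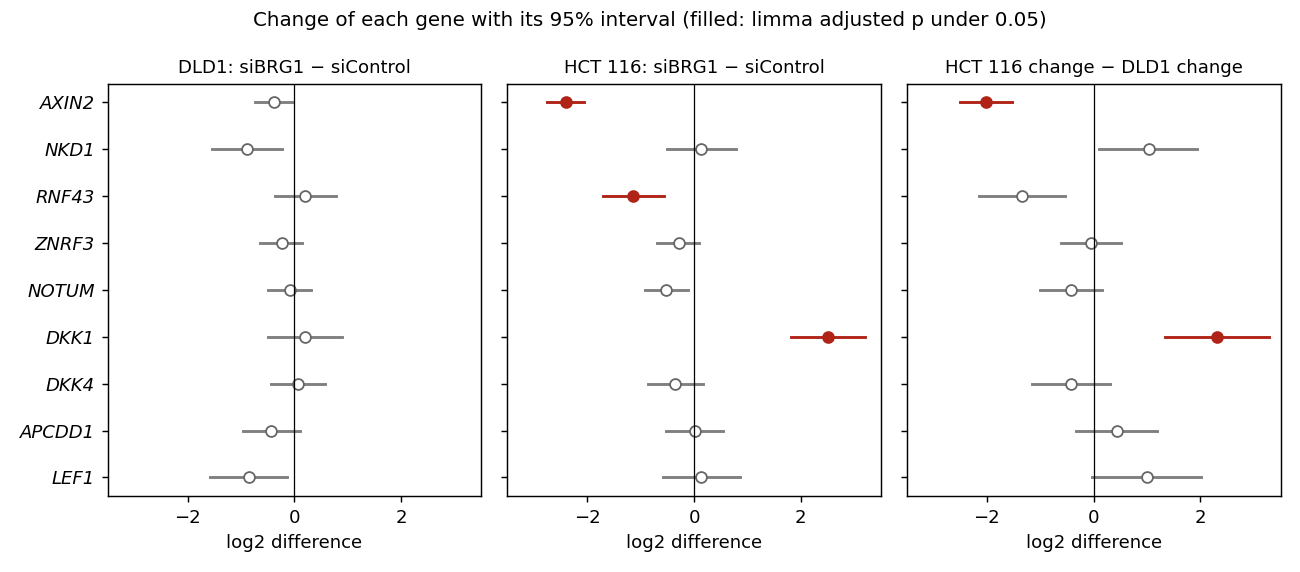
Log2 difference of each gene with its 95% limma interval for siBRG1 minus siControl in DLD1 and in HCT 116, and for the HCT 116 change minus the DLD1 change; filled red points have a limma adjusted p under 0.05 and open grey points do not. AXIN2 (−2.40), RNF43 (−1.14) and DKK1 (2.51) are filled in HCT 116, none is filled in DLD1, and AXIN2 (−2.01) and DKK1 (2.31) are filled for the difference.

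The promoters of the called genes are shown so that the letters upstream of a gene that rose and of 1 that fell can be set side by side. RefSeq promoter sequences (build GRCh38.p14) were used for 5 of the 10 genes, DKK1, RNF43, LEF1, APCDD1 and TCF7. AXIN2 was not among them, and the search passed over the chromosome of DKK4. The 250 bases before each start were searched on both strands for CTTTGA, the core of TCF sites, and for TGANTCA. The latter is a loose form of the AP-1 site, with any base at N. The 2 motifs do not overlap in these windows. Capitals mark the matches below, the first RNF43 window being the more upstream start of that gene.
DKK1: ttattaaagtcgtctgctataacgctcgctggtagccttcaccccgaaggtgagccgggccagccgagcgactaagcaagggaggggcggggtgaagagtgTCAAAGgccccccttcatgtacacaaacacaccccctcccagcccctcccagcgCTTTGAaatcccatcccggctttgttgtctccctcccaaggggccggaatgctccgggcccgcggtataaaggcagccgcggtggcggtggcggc
RNF43 first start: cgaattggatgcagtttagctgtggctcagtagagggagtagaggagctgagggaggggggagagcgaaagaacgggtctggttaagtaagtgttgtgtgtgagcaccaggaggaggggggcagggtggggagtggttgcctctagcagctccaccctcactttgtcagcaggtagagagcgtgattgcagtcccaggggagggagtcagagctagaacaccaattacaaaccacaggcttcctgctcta
RNF43 second start: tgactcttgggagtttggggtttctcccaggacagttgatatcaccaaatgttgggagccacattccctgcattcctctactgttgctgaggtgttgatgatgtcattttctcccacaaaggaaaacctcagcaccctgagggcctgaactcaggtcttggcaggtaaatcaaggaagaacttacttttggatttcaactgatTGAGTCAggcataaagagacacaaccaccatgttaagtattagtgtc

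The DKK1 window (chr10:52314031-52314280, plus strand) held CTTTGA at 2 places, 95 to 90 bases before the start on the gene's strand and 149 to 144 bases before it on the other strand. Of 35116 RefSeq windows of 250 bases, 11.2% held this motif. The second RNF43 window (chr17:58402722-58402971, minus strand) held 1 match to TGANTCA, 47 to 41 bases before the start, a motif found in 6.57% of windows. Neither motif was in the first RNF43 window (chr17:58417535-58417784, minus strand) nor in the LEF1, APCDD1 and TCF7 windows. A match is a description of the letters and not a binding site, and binding was not measured.

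The difference between the lines in their response was called for AXIN2 and DKK1. For DKK1 it was taken against DLD1 values that may be background, so its size is uncertain. The HCT 116 change minus the DLD1 change was −2.01 for AXIN2 (SE 0.23, interval −2.50 to −1.52, limma adjusted p = 0.00117) and 2.31 for DKK1 (SE 0.46, interval 1.33 to 3.29, limma adjusted p = 0.0480). These were 2 of 9 genes called, against 0.334% of all genes. The AXIN2 call held without any 1 of the 12 arrays. DKK1 was still called without DLD1 siControl replicate 1 or DLD1 siBRG1 replicate 2. Its call was lost without each of the other 10 arrays (difference 1.96 to 2.42, limma adjusted p 0.0610 to 0.133) and after a further quantile normalization (2.30, limma adjusted p = 0.0542). RNF43 differed by −1.34 (SE 0.38, interval −2.14 to −0.53) and did not pass (limma adjusted p = 0.199), but it did with the replicate number as a block (limma adjusted p = 0.0431). In HCT 116 same-numbered arrays did not deviate together at every number (correlations 0.30, 0.15 and 0.03), which limits what the block shows there. NKD1 (interval 0.11 to 1.94) and LEF1 (interval −0.03 to 2.02) differed with the opposite sign, and neither was called (limma adjusted p = 0.473 and 0.580).

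Averaged over both lines, AXIN2 fell by 1.40 (SE 0.11, limma adjusted p = 1.35e-05) and DKK1 rose by 1.35 (SE 0.23, limma adjusted p = 0.00287), 2 of 9 genes called against 8.68% of all genes. The AXIN2 average combines changes of −2.40 and −0.39. That of DKK1 includes DLD1 values that may be background, so its size is uncertain. The other averages, all below 0, ran from −0.47 for RNF43 to −0.14 for DKK4 and did not pass (limma adjusted p 0.151 to 0.718). With the replicate block RNF43 passed (limma adjusted p = 0.0249).

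Differences between arrays that share a replicate number were steady for some genes that did not pass. In DLD1 they were −0.44, −0.39 and −0.35 for AXIN2, −0.84, −0.82 and −1.01 for NKD1, and −0.94, −0.63 and −1.02 for LEF1. The DLD1 array numbered 2 was the highest of its group for AXIN2, LEF1, RNF43 and DKK1 under both siRNAs. ZNRF3 was lower at all 3 numbers in DLD1 (−0.22, −0.29 and −0.23) and in HCT 116 (−0.09, −0.17 and −0.60). RNF43 was higher at all 3 numbers in DLD1 (0.03, 0.19 and 0.37). How often all genes keep 1 sign at the 3 numbers was not counted. With the replicate number as a block none of the 9 passed in DLD1, the lowest values being those of NKD1 (limma adjusted p = 0.0816) and LEF1 (limma adjusted p = 0.104). In HCT 116 the differences of LEF1 ran from −0.51 to 0.69 and those of NKD1 from −0.47 to 0.61.

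**Figure D3:**
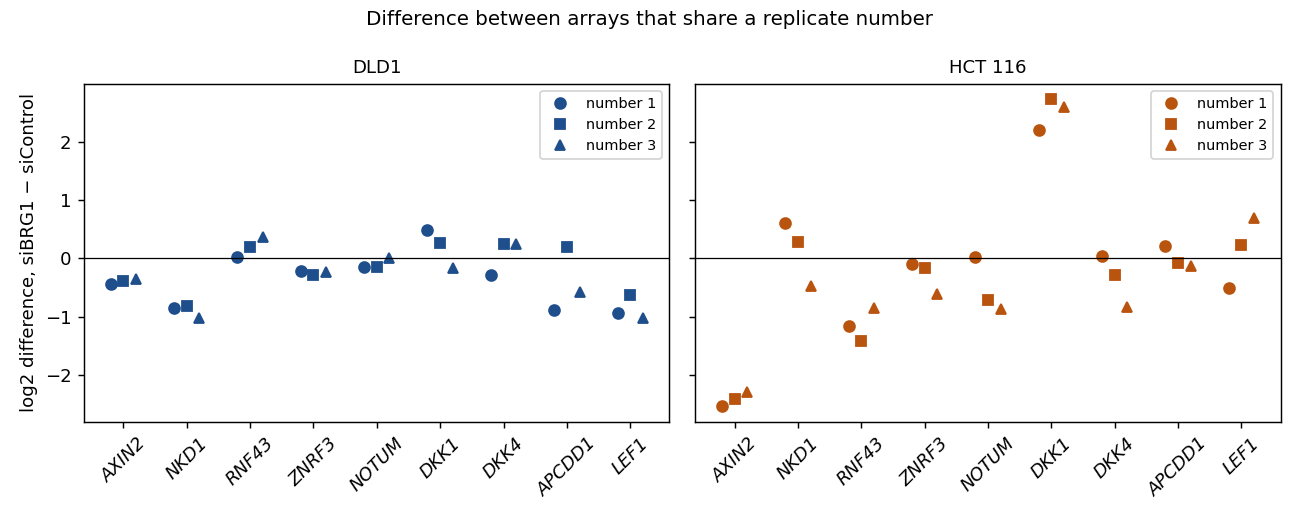
Log2 difference, siBRG1 minus siControl, between the arrays of a line that share a replicate number (circle 1, square 2, triangle 3), for 9 genes in DLD1 and HCT 116. In DLD1 the 3 values of AXIN2, NKD1, ZNRF3 and LEF1 lie below 0 and those of RNF43 (0.03 to 0.37) above it. In HCT 116 those of AXIN2 (−2.53 to −2.28), RNF43 (−1.42 to −0.85) and ZNRF3 (−0.60 to −0.09) lie below 0 and those of DKK1 (2.20 to 2.73) above it.

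The control arrays of the lines differed at 6 of the 9 genes, against 27.6% of all genes. AXIN2 (−4.04, limma adjusted p = 4.76e-11), LEF1 (−5.31, limma adjusted p = 1.11e-08), ZNRF3 (−1.43) and RNF43 (−1.18) were lower in HCT 116, a direction called for 14.0% of all genes. DKK1 (8.16, limma adjusted p = 4.35e-11) and NOTUM (0.93) were higher there, a direction called for 13.6%. The size of the DKK1 difference is uncertain, since its DLD1 values lie below the array median. NOTUM lay below it in both lines. NKD1 (−0.59), DKK4 (0.20) and APCDD1 (−0.45) did not pass (limma adjusted p 0.185 to 0.606). NKD1 did without HCT 116 siControl replicate 3 (−0.93, limma adjusted p = 0.0258) and APCDD1 without DLD1 siControl replicate 2 (−0.82, limma adjusted p = 0.00593). The summed log2 level of the 9 epithelial markers also differed, at 108 to 110 on DLD1 and 93.5 to 96.3 on HCT 116 arrays over both siRNAs, and the part of this was not tested. After siBRG1 the distance between the lines was −6.05 for AXIN2, −2.52 for RNF43 and 10.48 for DKK1, each further from 0 than between the control arrays, and −4.31 for LEF1, nearer to it. These shifts are the differences in response given above, which were called for AXIN2 and DKK1 but not for RNF43 or LEF1.

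The order of the groups set the lines apart for 6 genes. How many of all genes show such an order was not counted, so the 6 have no background share. Between the control arrays alone 27.6% of all genes were called. For ZNRF3, RNF43 and LEF1 both DLD1 groups lay above both HCT 116 groups without overlap, as for AXIN2. DKK1 and NOTUM had both HCT 116 groups on top. Within a line, neighbouring groups overlapped for ZNRF3, NOTUM and LEF1 in both lines and for RNF43 and DKK1 in DLD1. For NKD1, DKK4 and APCDD1 all neighbours in the order overlapped.

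The rest of the pathway was read from 6 lists naming 129 genes, of which 120 were measured. In HCT 116, 3 rose, 9 fell and 108 did not pass, so 12 of 120 were called, against 6.95% of all genes; without HCT 116 siControl replicate 2 the calls numbered 5, and without siBRG1 replicate 3 they numbered 7. In DLD1, 1 fell and 119 did not pass. The 12 changes called in HCT 116 measured 0.67 to 1.48, smaller in size than those of AXIN2 and DKK1. The median change over the 120 genes was −0.07 in each line.

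Among 19 measured genes of Wnt ligands and their secretion, WNT16 rose in HCT 116, from 10.34 to 11.82 (change 1.48, SE 0.27, limma adjusted p = 0.00502), and 18 did not pass. It was called without any 1 array. In DLD1, where WNT16 averaged 5.52 and 5.10, none of the 19 passed, the largest difference being that of WNT5B (0.57, limma adjusted p = 0.322). Among 20 genes of receptors, co-receptors and R-spondins, LGR4, a receptor for R-spondins, the ligands that restrain RNF43 and ZNRF3, fell in HCT 116 from 7.73 to 6.76 (change −0.97, SE 0.20, limma adjusted p = 0.00862). It stood at 7.68 in both DLD1 groups, and the other 19 did not pass in HCT 116. None passed in DLD1, where LGR6 had the largest difference (−0.93, limma adjusted p = 0.260). Of 14 other extracellular inhibitors, KREMEN1, a receptor that works with DKK proteins, fell in HCT 116 (−0.89, SE 0.20, limma adjusted p = 0.0141). Its call was lost without HCT 116 siControl replicate 2 or siBRG1 replicate 3. The other 13 did not pass, nor did any of the 14 in DLD1, where TRABD2A was at −0.68 (limma adjusted p = 0.341). In DLD1, WNT16, WNT5B, LGR6 and TRABD2A averaged below the array medians under both siRNAs, so their values there may be background.

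Of 21 genes of cytoplasmic transduction and the destruction complex, 1 rose and 2 fell in HCT 116. The kinase genes CSNK1G2 (−1.08, SE 0.23) and GSK3A (−1.05, SE 0.22) fell and CSNK1A1, the kinase that primes beta-catenin for degradation, rose (0.78, SE 0.17), with limma adjusted p of 0.0122, 0.0111 and 0.0125. The calls held in 11, 11 and 9 of 12 fits without 1 array. Those of CSNK1G2 and CSNK1A1 were lost without HCT 116 siControl replicate 2, those of GSK3A and CSNK1A1 without siBRG1 replicate 3, and that of CSNK1A1 without siBRG1 replicate 2. The transcripts of CTNNB1 itself (−0.11 in DLD1 and −0.23 in HCT 116) and APC (0.18 and 0.40) did not pass; both were picked for their place in the pathway after their values were seen. In DLD1 none of the 21 passed, BTRC being furthest from 0 (0.81, limma adjusted p = 0.0914). Of 17 nuclear partners of beta-catenin, 2 genes of the Groucho family fell in HCT 116. They were TLE5 (−1.15, SE 0.20, limma adjusted p = 0.00359) and TLE1 (−0.67, SE 0.17, limma adjusted p = 0.0264). The coactivator gene CREBBP rose there (1.08, SE 0.27, limma adjusted p = 0.0237). TLE5 was called without any 1 array. TLE1 and CREBBP were called in 8 of 12 such fits, both calls being lost without HCT 116 siControl replicate 2 or 3 or siBRG1 replicate 3, that of TLE1 also without siBRG1 replicate 2 and that of CREBBP also without siBRG1 replicate 1. In DLD1 none of the 17 passed, TLE3 being at −0.65 (limma adjusted p = 0.316).

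Most other known TCF targets did not pass. Of 29 measured, 3 fell in HCT 116: CEMIP (−1.20, limma adjusted p = 0.0229), the crypt transcription factor gene SOX9 (−0.95, limma adjusted p = 0.00727) and the nuclear receptor gene PPARD (−0.70, limma adjusted p = 0.0387). That share, 10.3%, stands beside 6.95% of all genes, and the list median was −0.06. CEMIP averaged 6.07 with siControl and 4.88 with siBRG1 in HCT 116, below the array medians, so its values there may be background. SOX9 was called without any 1 array, CEMIP not without HCT 116 siControl replicate 2 or siBRG1 replicate 2, and PPARD in 5 of 12 such fits, not without DLD1 siControl replicate 2 or any of the 6 HCT 116 arrays. In DLD1 the hyaluronan receptor gene CD44 fell (−1.05, SE 0.18, limma adjusted p = 0.0352) and 28 did not pass. The CD44 call stood in 3 of 12 fits without 1 array, those without DLD1 siBRG1 replicate 1, HCT 116 siControl replicate 1 or HCT 116 siBRG1 replicate 1. MYC and CCND1, chosen after their values were seen, did not pass in either line, with changes of −0.33 and 0.07 in DLD1 and 0.48 and 0.23 in HCT 116. Between the control lines 21 of the 29 differed (72.4%), 14 being lower and 7 higher in HCT 116, against 27.6% of all genes. Over all 120 pathway genes the share was 36.7%. By limma 10 of the 20 genes in the receptor list were called, 35.3% of the nuclear partners, 19.0% of the cytoplasmic list and 15.8% of the ligand list. Of 14 other extracellular inhibitors limma called 0, and 0 had an unadjusted p under 0.05. All of them but KREMEN1 averaged below the array medians in every group and may be background, so this share says little about the lines.

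**Figure D4:**
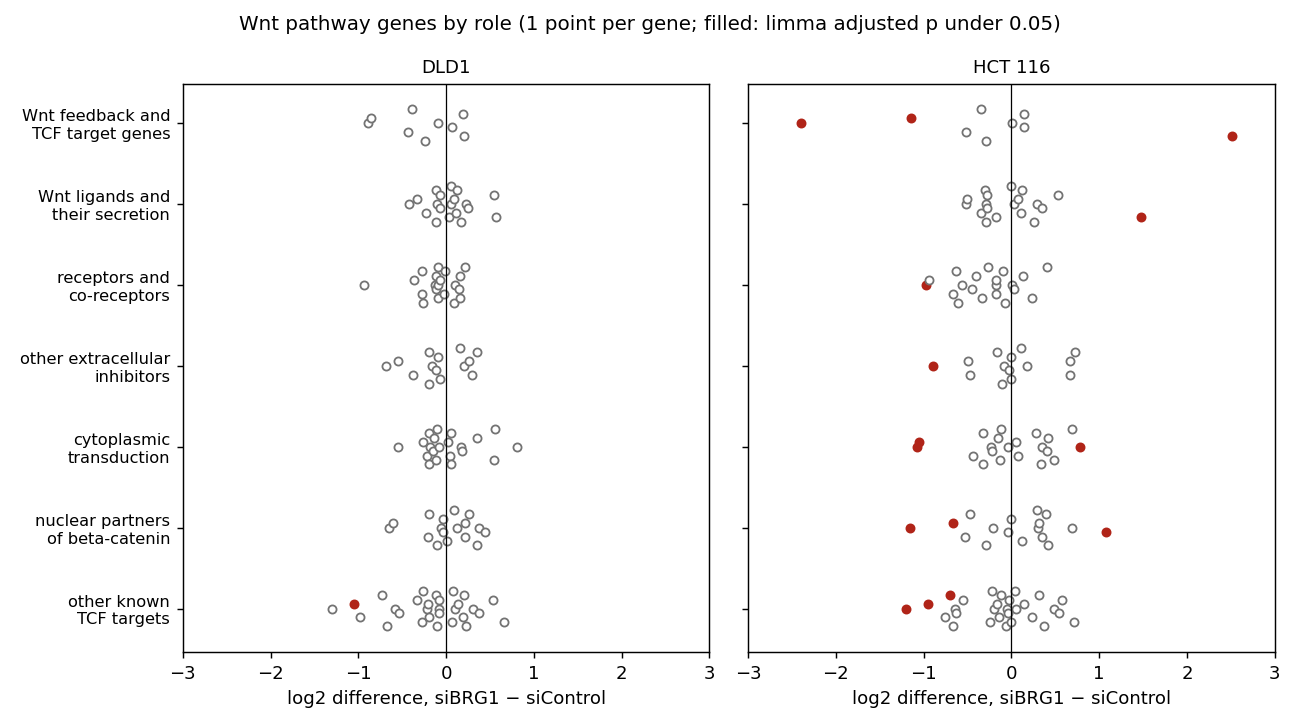
Log2 difference, siBRG1 minus siControl, of the 9 Wnt feedback and TCF target genes and of 120 other Wnt pathway genes by role, in DLD1 and HCT 116; each point is a gene, points are spread vertically only to separate them, and filled red points have a limma adjusted p under 0.05. In HCT 116 AXIN2 (−2.40) and DKK1 (2.51) lie outside the range of the other called pathway genes, and in DLD1 the filled point is CD44 (−1.05).

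For each of the 9 genes the 3 whose log2 values lay nearest over the 12 arrays were found, after each gene was centred on its own mean, by the root mean square difference. TNFRSF19, a receptor gene from the list of TCF targets, lay nearest to LEF1 (0.41, beside a standard deviation of LEF1 of 2.57 over the arrays), followed by LRRN1 (0.44) and EFNA5 (0.47). Nearest to AXIN2 were CRTAM (0.60), PAPSS2 (0.61) and CD24 (0.64), beside its standard deviation of 2.78. CRTAM, PAPSS2 and CD24 were also called lower in HCT 116 (−1.02, −1.08 and −1.60, limma adjusted p 0.0182 to 0.0303). Nearest to DKK1 were DMKN (0.93), SLC38A5 (0.98) and ANO6 (1.01), which shared its contrast between the lines, with HCT 116 changes of 0.57, 0.19 and 0.06 that did not pass. Nearest to RNF43 were MORC4 (0.27), SYTL2 (0.29) and SMIM22 (0.29), of which MORC4 was called lower in HCT 116 (−1.44, limma adjusted p = 0.000993). Nearest to ZNRF3 were H2BC6 (0.16), GDE1 (0.17) and ERP44 (0.18). For the 4 low genes the distances were 0.14 to 0.27, beside standard deviations of 0.30 to 0.50: MS4A6E, GJB2 and OSTC for NKD1, ENPP1, NOM1 and PSMD2 for NOTUM, FOXI3, BRD3 and PLXNA4 for DKK4, and MRPS26, MUL1 and SLC10A1 for APCDD1. Of these, ENPP1 was called lower in HCT 116 (−0.72, limma adjusted p = 0.0368). The arrays share lines and siRNAs, so nearness here mostly follows the 4 group means. Calls of the nearest genes rest on the same values by which they were picked, so they give no separate support.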

How the data were processed

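Biotin-labelled RNA of 12 samples was measured on single-colour arrays. The authors deposited log2 values; RMA and Affymetrix Power Tools are named, without versions, in the submitters' processing notes. An array holds 94 to 112 values above 16, more than a 16-bit scanner gives, so the scale includes a further step not named there. Samples were grouped by title; 4 HCT 116 samples have a source name whose numbers differ from it. Of 21448 features, 17709 had 1 symbol (updated through Entrez IDs), 0 had several and 3739 had none in the annotation used; 20 genes had several features, none of them described here.

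limma 3.58.1 (R 4.3.3) fitted 4 group means over all 12 arrays, with eBayes (8 residual and 6.66 prior degrees of freedom) and Benjamini-Hochberg adjustment over 17687 genes per contrast. Intervals are 95% limma intervals, and the number of arrays limits their precision. The steps were tested on simulated data. Exact 2-sided permutation of SMARCA4 gave p = 0.1 in each line and p = 0.005 over both, the smallest possible.

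The genes and lists were chosen with earlier results of these data known. Named were all 9 measured genes and, per list and line, up to 3 called genes with the largest change, or otherwise the 1 furthest from 0, and the 3 genes nearest to each of the 9; control-line and promoter values, the motifs included, were chosen after seeing the data. In DLD1 same-numbered arrays deviated together (correlations of deviations across genes 0.49, 0.46 and 0.29), so the numbers were taken to pair them, from the data and not the labels; in HCT 116 they did not at every number (0.30, 0.15 and 0.03). Alternatives were the replicate block, each line alone, quantile normalization, centring, a level filter, the mean of features, a trended robust prior, array weights and each array left out.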

Additional observations from a re-analysis of the deposited data

Results flagged for a closer look

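The siBRG1 effect differed between the lines for 3 Wnt pathway genes by the interaction term of the limma fit. For AXIN2 the HCT 116 change minus the DLD1 change was −2.01 (SE 0.23, limma adjusted p = 0.00117), with changes of −2.40 and −0.39 and all siBRG1 arrays lower in both lines. For DKK1 it was 2.31 (SE 0.46, limma adjusted p = 0.0480), with changes of 2.51 and 0.19; its DLD1 arrays lay below the array median and may be background, so the size is uncertain, and the call was lost without 10 of the 12 arrays in turn. For SOX9, a TCF target and crypt transcription factor gene, it was −1.61 (SE 0.27, limma adjusted p = 0.0161), with changes of −0.95 in HCT 116 and 0.66 in DLD1. The SOX9 call was lost without DLD1 siControl replicate 3, HCT 116 siControl replicate 2 or HCT 116 siBRG1 replicate 3.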

How the results depend on the processing

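The calls of AXIN2 and DKK1 in HCT 116 and over both lines held under every alternative run, with HCT 116 changes of −2.46 to −2.30 and 2.44 to 2.60; no gene of the 9 was called in DLD1 under any. The cause of the shifts below was not tested. With the replicate block, genes called over the whole table numbered 98 in DLD1, 2123 in HCT 116, 2476 on average and 102 for the difference; RNF43 then passed on average (−0.47, limma adjusted p = 0.0249) and for the difference (−1.34, limma adjusted p = 0.0431), and other pathway genes called for the difference numbered 3. The block, taken within lines, was not run for the control lines, and same-numbered HCT 116 arrays did not deviate together at every number. With array weights the table's calls were 128, 2035, 2306 and 162, pathway calls were 2 in DLD1, 19 on average and 3 for the difference, and NOTUM passed in HCT 116 (−0.62, limma adjusted p = 0.0278). DLD1 calls were 4 with each line fitted alone, with 0 pathway genes, and 63 with a trended robust prior. The level filter gave 2 pathway calls in DLD1; it, quantile normalization, centring and the trended prior each gave 2 for the difference. Of the 9 genes, 1 passed for the difference after quantile normalization.

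Leaving out 1 array gave 7 to 66 calls in DLD1: 12 and 7 without DLD1 siControl replicates 1 and 3, 66 and 8 without DLD1 siBRG1 replicates 1 and 3, and, for HCT 116, 20 and 17 without replicates 2 and 3 of siControl and 18 and 19 without those of siBRG1. In HCT 116 it gave 618 to 1271: 618 and 664 without HCT 116 siControl replicates 2 and 3, and 675 and 640 without siBRG1 replicates 2 and 3. On average it gave 797 to 1593: for replicate 3 of DLD1, 1013 without the siControl array and 797 without the siBRG1 array, 935 without HCT 116 siControl replicate 2, and 982 and 1000 without HCT 116 siBRG1 replicates 2 and 3. For the difference it gave 26 to 71: 38 and 26 without DLD1 siControl replicates 1 and 3, 37 without DLD1 siBRG1 replicate 3, and, for HCT 116, 29 and 30 without replicates 2 and 3 of siControl and 26 without replicate 3 of siBRG1. Among the 9 genes it gave 2 to 4 calls in HCT 116 and 1 to 2 for the difference. Among other pathway genes it gave 0 to 1 in DLD1, 5 to 14 in HCT 116 (5 without siControl replicate 2, 7 without siBRG1 replicate 3), 6 to 12 on average and 0 to 3 for the difference. Signs of small changes that were not called turned without 1 array: DKK1 (−0.19 to 0.55) and DKK4 (−0.13 to 0.29) in DLD1, NKD1 (−0.18 to 0.48), APCDD1 (−0.06 to 0.06) and LEF1 (−0.21 to 0.45) in HCT 116, and the ZNRF3 difference between lines (−0.17 to 0.06). The ZNRF3 difference was also 0.02 after quantile normalization and 0.05 after centring, and APCDD1 was −0.03 with array weights. Centring turned the split of all HCT 116 calls to 615 higher and 565 lower, from 499 and 731.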
